A study of Rana pirica with 14 samples.

Results

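Tadpoles of the frog Rana pirica that had met larval salamanders for 4 days and then lived without them for 4 days (−Salam) were compared with tadpoles that never met a predator (Cont). The comparison asks what still sets the tail apart once the threat has gone. Members were chosen by their titles: the 3 arrays of −Salam and the 2 of Cont, 5 of the 14 arrays in the study, with all 15491 probe sets other than those of added control transcripts. Tadpoles were 10 days old at the start, −Salam aquaria held larvae of Hynobius retardatus, and all tails were taken on day 8. Salam tadpoles, used below for comparison, kept the salamanders for 8 days (3 arrays). −Drago and Drago are the matching groups with caged dragonfly larvae (3 arrays each). The study reports bites and a few deaths among tadpoles kept with salamanders, and no harm from the caged dragonfly larvae. Injury and loss of tadpoles in −Salam cannot be told apart from the past threat, and their part was not tested.

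Larval salamanders swallow their prey whole, and Rana pirica tadpoles that live with them grow a bulgy body and a deeper tail that is harder to swallow. The change is plastic, and tadpoles return towards the usual shape when the predator is taken away. The tail is a mixed tissue of muscle, epidermis, notochord, nerve cord, vessels, blood and loose connective tissue. In a bulk sample of it, fewer cells of a type and less RNA per cell cannot be told apart. The tail RNA was hybridized to an array made for another frog, Xenopus laevis. The annotation gives 1 gene symbol for 9304 of the probe sets, several for 195 and none for 5992. The endings .L and .S mark the gene copies of Xenopus laevis, and which Rana pirica transcript a probe set read was not tested.

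Each value is a log2 signal from which the median of that probe set over the 14 arrays had been subtracted, so 0 is the middle array and the level of a transcript is lost. Whether the defining markers of tail tissues were present could therefore not be checked, and levels of different genes cannot be compared. The labels call the arrays biological replicates, while in the methods the tails of a treatment group were combined before extraction. Separate pools per array are not documented, and p-values here measure only the spread between arrays, which may be technical. Over the 5 arrays no pair correlated, with r across probe sets from -0.019 to 0.008 within a group and from -0.027 to 0.001 between groups. The added poly-A transcript Dap stood at 3.31, -1.28 and -1.09 on the −Salam arrays and at 3.19 and -0.18 on the Cont arrays, so that replicate 1 of both groups was high. It stood at 4.12, 3.12 and -0.58 on the Salam arrays and at -0.81, -0.59 and -0.45 on the −Drago arrays. Dap was thus high on more Salam than −Salam arrays and on no −Drago array. The medians per array of the muscle, epidermal, notochord, neural, red blood cell and immune cell lists overlapped between −Salam and Cont.

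No probe set passed the test between −Salam and Cont. By limma with Benjamini-Hochberg adjustment over 15491 probe sets, 0 had an adjusted p under 0.05, and the lowest adjusted p, 0.617, was shared by 78. At an unadjusted p under 0.05 there were 882 (5.69%), 463 higher in −Salam (2.99%) and 419 lower (2.70%), where the level itself gives 775. The lowest unadjusted p was 0.00016. More than 2 fold from Cont were 4294 probe sets (27.7%), and more than 5 fold 312 (2.01%), 159 above it (1.03%) and 153 below it (0.988%). Of these, 94 above and 85 below carried 1 gene symbol. The arrays did not overlap for 3094 probe sets (20.0%), with −Salam above for 1568 (10.1%) and below for 1526 (9.85%). The count over 5 fold depended on every array. It was 503, 471 and 516 without −Salam replicate 1, 2 and 3, and 840 and 988 without Cont replicate 1 and 2.

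Differences are log2 values, −Salam minus Cont, each with its standard error (SE). The SE had a median of 0.86 over all probe sets and ran from 0.493 to 1.65. The median size of a difference was 0.588, a fold of 1.5, and the median with its sign was -0.0111. The within-group standard deviation had a median of 0.812 over the 3 −Salam arrays and 0.589 over the 2 Cont arrays. Precision is set by how few arrays there are, Cont having only 2, and a gene that does not pass is not shown to be at its Cont level.

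**Figure D1:**
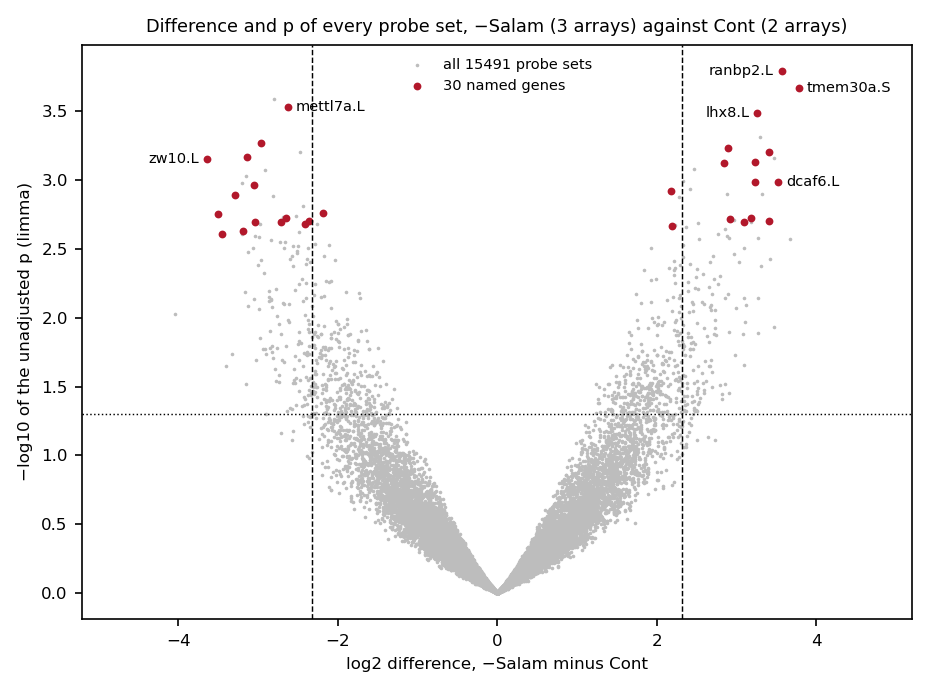
Each point is a probe set, with the log2 difference, −Salam minus Cont, on the x axis and −log10 of the unadjusted limma p on the y axis. The dashed lines mark 5 fold, the dotted line an unadjusted p of 0.05, and the 30 named genes (red) are those with 1 symbol, arrays that do not overlap and the smallest p, none of which has an adjusted p under 0.617.

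The 15 genes with 1 symbol and the smallest p above Cont are described with their known roles. tmem30a.S, a subunit of the flippases that move phospholipids across membranes, stood at 3.89, 2.50 and 1.52 in −Salam and at -1.13 and -1.16 in Cont. All 3 −Salam arrays were thus clear of the Cont pair, though far apart among themselves, and the difference of 3.78 (SE 0.77) was the highest of all probe sets. rrbp1.S, which ties ribosomes to the endoplasmic reticulum, stood at -0.16, 0.14 and 0.66 in −Salam and at -3.17 and -2.19 in Cont (difference 2.89, SE 0.66). slc33a1.L, the carrier of acetyl-CoA into the endoplasmic reticulum, stood at 0.03, 0.79 and -0.20 in −Salam and at -2.97 and -2.31 in Cont (difference 2.85, SE 0.67). For this carrier and the ribosome tether −Salam lay near the middle array and Cont far below it. The others were fut11.S, a fucosyltransferase (3.40, SE 0.78), and slc15a2.L, a transporter of short peptides (3.24, SE 0.76). Each of the 15 had an adjusted p = 0.617 by limma.

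ranbp2.L, a large nuclear pore protein, had the smallest p of all, with 1.16, 0.94 and 0.74 in −Salam and -3.40 and -1.84 in Cont (difference 3.57, SE 0.71, unadjusted p = 0.00016, adjusted p = 0.617 by limma). cnot6l.S, a deadenylase that shortens poly-A tails, stood at -0.14, -0.06 and 0.76 in −Salam and at -3.08 and -2.91 in Cont (difference 3.19, SE 0.84). edc4.L, a scaffold of mRNA decapping, stood at 1.96, 1.70 and 1.30 in −Salam and at -1.80 and -1.35 in Cont (difference 3.23, SE 0.79). In all of these the gap between the groups was wider than the spread within either. psma2.L, a subunit of the proteasome core, stood at 0.40, 1.91 and 1.59 in −Salam and at -1.90 and -1.33 in Cont (difference 2.92, SE 0.77). gps1.L, a subunit of the COP9 signalosome, which acts on ubiquitin ligases, differed by 2.19 (SE 0.59), and dcaf6.L, a substrate receptor of such a ligase, by 3.53 (SE 0.86).

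lhx8.L, a LIM homeobox transcription factor, stood at 0.14, -0.18 and 0.58 in −Salam and at -3.42 and -2.74 in Cont (difference 3.26, SE 0.70). epb41.L, the red cell membrane skeleton protein, differed by 3.09 (SE 0.82), aif1l.L, an actin-binding protein, by 3.41 (SE 0.91), and ppp1r1a.L, an inhibitor of protein phosphatase 1, by 2.17 (SE 0.54). Of the 22 probe sets of the red blood cell list, the epb41.L probe set named here alone had an unadjusted p under 0.05 (4.55%), and the globin probe sets hbd.S and hba3.L overlapped between −Salam and Cont. The other epb41.L probe sets differed by -0.272 (SE 1.008), -0.425 (SE 0.88) and 0.629 (SE 0.81).

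Below Cont, the gene with 1 symbol and the smallest p was mettl7a.L, a methyltransferase of the endoplasmic reticulum and lipid droplets. It stood at -1.78, -2.46 and -2.01 in −Salam and at 0.51 and 0.57 in Cont (difference -2.63, SE 0.56). fgf8.L, a secreted growth factor of limb and tail buds, stood at -2.53, -1.93 and -1.92 in −Salam and at 1.23 and 0.78 in Cont (difference -3.13, SE 0.73). In both the −Salam arrays were also below every other array of the study. krt70.S, a keratin, stood at -1.52, -2.50 and -3.30 in −Salam and at 0.51 and 0.97 in Cont (difference -3.18, SE 0.87). serpina3.L, a serine protease inhibitor, stood at -3.02, -1.07 and -2.44 in −Salam and at 0.00 and 0.45 in Cont (difference -2.41, SE 0.64). The 15 genes below Cont shared the adjusted p = 0.617 of those above it, by limma.

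mysm1.L, a deubiquitinase of histone H2A, differed by -3.44 (SE 0.94) and yod1.L, a deubiquitinase of the endoplasmic reticulum pathway, by -2.65 (SE 0.70). zw10.L, which works at the kinetochore and in vesicle transport, stood at -0.96, -2.24 and -1.95 in −Salam and at 2.79 and 1.05 in Cont (difference -3.64, SE 0.85). Its Cont arrays were far apart, and the difference was -2.77 without Cont replicate 1 and -4.50 without Cont replicate 2. dnttip1.L, a partner of histone deacetylases, differed by -3.51 (SE 0.92), npm2.L, a histone chaperone known from the Xenopus egg, by -2.35 (SE 0.63), and rbm38.L, an RNA-binding protein, by -2.19 (SE 0.57). cel.2.L, a bile salt-activated lipase, differed by -2.97 (SE 0.67) and mff.S, a receptor for mitochondrial fission, by -3.29 (SE 0.83). impdh2.S, of guanine nucleotide synthesis, differed by -3.04 (SE 0.81), chst13.S, which sulfates chondroitin, by -2.72 (SE 0.72), and lamtor3-like.L, named after a lysosomal scaffold protein, by -3.05 (SE 0.75).

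**Figure D2:**
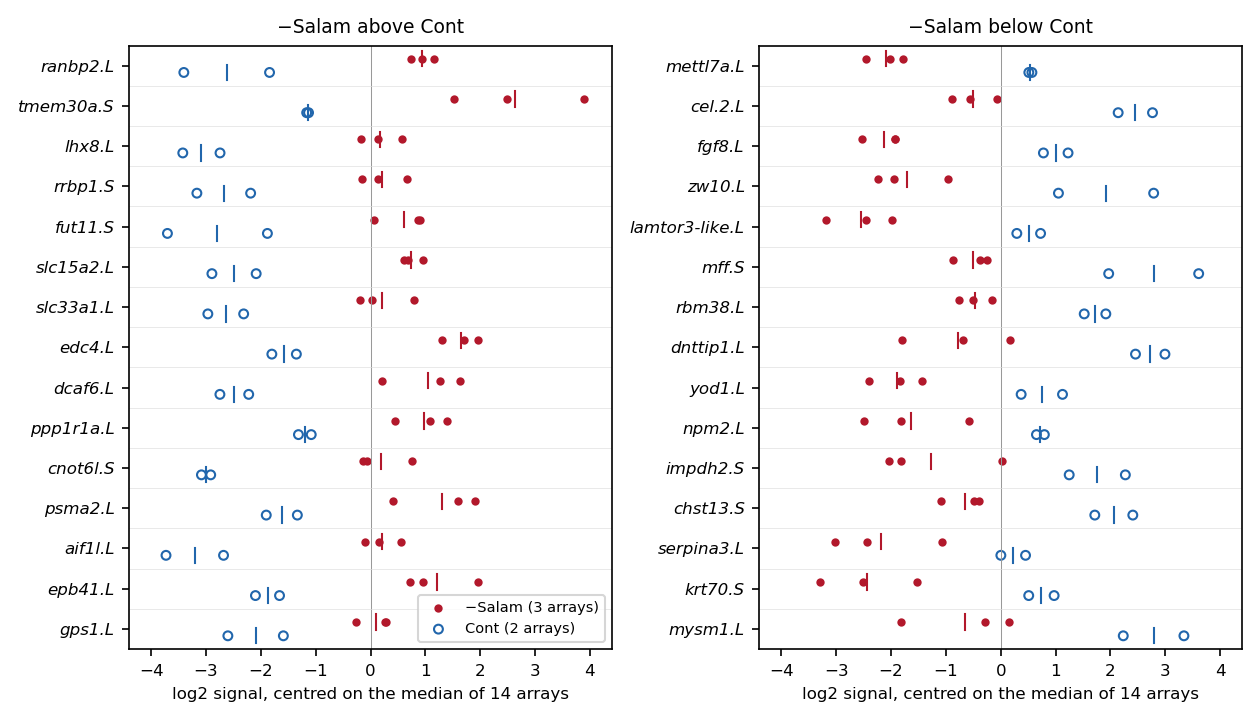
Each row is a gene, with its 3 −Salam arrays (filled) above its 2 Cont arrays (open) and a tick at each group mean, on the centred log2 scale. The 15 genes on the left have all −Salam arrays above both Cont arrays and the 15 on the right below, which the choice of genes fixes.

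Among the 30 genes, the group that stood apart from the rest of the study was counted on each side. Of the 15 genes above Cont, both Cont arrays lay below all 12 other arrays of the study in 9, ranbp2.L, lhx8.L and cnot6l.S among them, while the −Salam arrays were beyond all 11 other arrays in 0. Of the 15 below Cont, the −Salam arrays lay below all 11 others in 4, mettl7a.L, fgf8.L, yod1.L and npm2.L, and both Cont arrays above all 12 others in 3, cel.2.L, rbm38.L and chst13.S. Over all probe sets, the Cont arrays were beyond all others in 335 (2.16%) and the −Salam arrays in 93 (0.600%). A group of 2 arrays lies beyond the rest more easily than a group of 3, so these shares do not compare the groups. The 30 genes were chosen on these arrays, so their counts are a description. Within the arrays of high Dap, 1 against 1, the differences ran from 1.95 to 5.02 for the genes above Cont and from -5.16 to -1.82 for those below. Within the arrays of low Dap, 2 −Salam against 1 Cont, they ran from 1.85 to 4.59 and from -3.87 to -1.85. The choice of the 30 genes fixed the sign of these differences within each Dap class. The part of the poly-A control in them was not tested.

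Set against tadpoles that kept their salamanders, −Salam differed from Salam in 0 of the 30 at an adjusted p under 0.05 by limma, and in 11 at an unadjusted p under 0.05, against 851 of all probe sets (5.49%). The 2 comparisons share the −Salam arrays on which the 30 were chosen. tmem30a.S was 3.26 higher in −Salam than in Salam (adjusted p = 0.491 by limma), where Salam stood at -0.28, -0.13 and -1.45, on the Cont side. By limma, psma2.L was 2.40 higher in −Salam (adjusted p = 0.728), rrbp1.S 1.91 higher (adjusted p = 0.742), and epb41.L 2.07 higher (adjusted p = 0.869). The dragonfly groups also lay above Cont in these genes. From Cont, −Drago and Drago differed by 2.58 and 0.86 for tmem30a.S and by 2.88 and 3.015 for rrbp1.S. For psma2.L they differed by 0.50 and 3.10, and for epb41.L by 1.80 and 3.24. A place above Cont was thus not particular to −Salam. On the lower side, mettl7a.L differed from Salam by -2.48 and serpina3.L by -2.70 (adjusted p = 0.491 for both, limma). For these 2 the separate Salam group, still with its salamanders on day 8, stood near Cont, differing from it by -0.15 and 0.29. Tails of −Salam before the salamanders were removed were not sampled.

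For 8 genes the difference from Cont was much alike in −Salam and Salam. They were taken as the smallest larger p of both comparisons, which share the 2 Cont arrays, so the likeness can come from those 2 arrays alone. lhx8.L differed from Cont by 3.26 in −Salam and 2.90 in Salam, cnot6l.S by 3.19 and 3.63, and slc33a1.L by 2.85 and 2.61. clk3.L, a kinase of splicing factors, stood at 0.26, 0.21 and 0.09 in −Salam and at -2.25 and -3.08 in Cont, and differed by 2.85 (SE 0.77) in −Salam and 3.08 in Salam. gps1.L differed by 2.19 and 2.94, and ranbp2.L by 3.57 and 2.60. Below Cont, chst13.S differed by -2.72 in −Salam and -2.70 in Salam, and cel.2.L by -2.97 and -2.48. In 6 of the 8 the Cont arrays were beyond all 12 others, and the dragonfly groups fell on the same side: lhx8.L differed from Cont by 2.30 in −Drago and 3.75 in Drago. The second lhx8.L probe set differed by 0.11 (SE 0.57) in −Salam. Between −Salam and Salam themselves, 0 of the 8 had an unadjusted p under 0.05 by limma, beside 5.49% of all probe sets. The way the 8 were chosen favours small differences between −Salam and Salam, so this count is a description.

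Another 8 genes were over 5 fold from Cont in Salam and within a log2 difference of 0.32 of it in −Salam. Among 299 probe sets that differed over 5 fold between Salam and Cont, 27 (9.03%) lay within that limit in −Salam, 15 of them with 1 gene symbol, beside 30.2% of all probe sets. Both comparisons share the Cont arrays. pdap1.L, which codes for a PDGF-associated protein, stood at 0.15, -0.16 and 0.63 in −Salam, at 3.31, 3.60 and 3.52 in Salam, and at -0.20 and 0.44 in Cont. The study had selected this probe set on the same arrays and lists it as an EST of unknown identity. The −Salam and Cont arrays overlapped (difference 0.09, SE 0.57), and all Salam arrays were far above both. The other pdap1 probe sets were not: pdap1.S differed from Cont by -0.36 (SE 0.60) in −Salam and -0.16 in Salam, and the probe set of both pdap1 copies by 0.54 (SE 0.75) and 0.77. vps35.S, a subunit of the retromer that recycles membrane proteins, stood at 0.88, 0.61 and 0.88 in −Salam, at -1.19, -2.53 and -1.66 in Salam, and at 0.77 and 0.97 in Cont. Its difference from Cont was -0.08 (SE 0.63) in −Salam. In the dragonfly groups vps35.S differed from Cont by -2.16 in −Drago and -0.45 in Drago, and pdap1.L by -0.23 and -0.63. For vps35.S a place below Cont was thus not particular to Salam. Between −Salam and Salam the gaps were -3.27 for pdap1.L (adjusted p = 0.193 by limma) and 2.58 for vps35.S (adjusted p = 0.504), and neither passed. The other 6 were sytl1.S, ropn1l.L, prkdc.L, the beta-tubulin tubb.L, top1.2.S and the casein kinase csnk1g1.S, with differences from Cont between -0.12 and 0.24 in −Salam. prkdc.L, a DNA repair kinase, stood at 1.03, 0.44 and -0.24 in −Salam, at -3.33, -2.51 and -0.99 in Salam, and at 0.53 and 0.31 in Cont. For top1.2.S, a topoisomerase, 1 of the 3 −Salam arrays was at -0.10 and the others at 3.21 and 3.10. Its mean near that of Cont thus joins unlike arrays. This gene also differed from Cont by -2.80 in −Drago and -1.34 in Drago. Most other probe sets of the genes named here lay farther from Cont in −Salam. Those of csnk1g1.S differed by 2.57 (SE 1.03, unadjusted p = 0.0253 by limma), 2.30 (SE 1.23), 0.43 and 0.12, those of sytl1.S by -1.69 (SE 0.98) and -1.04 (SE 1.09), those of top1.2.S by -1.48 (SE 0.82) and 0.66, and that of tubb.L by -0.62. For sytl1.S and ropn1l.L the difference in −Salam was -1.04 and -0.70 without Cont replicate 1.

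**Figure D3:**
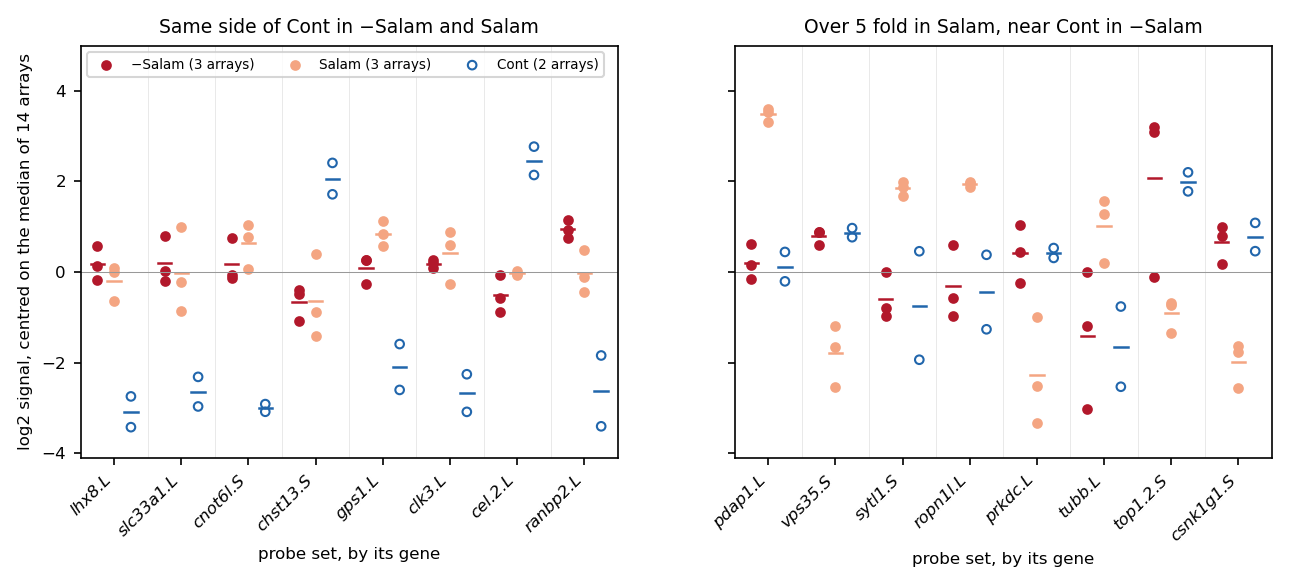
For each gene the points are the arrays of −Salam, Salam and Cont on the centred log2 scale, with a bar at the group mean. On the left −Salam and Salam lie on the same side of Cont, and on the right −Salam lies near Cont while Salam is over 5 fold away, both by choice of the genes.

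Some genes that the study singled out lay apart in −Salam as well. These genes had been selected on the same arrays, so their values are a description. elavl1.S, which codes for the mRNA-stabilizing protein HuR, stood at -1.96, -2.10 and -1.63 in −Salam and at -0.14 and -0.20 in Cont (difference -1.73, SE 0.55, adjusted p = 0.75 by limma). By real-time PCR the study found a smaller drop of this gene in −Salam than on the array. Its test over several group ratios did not reject equal means of both methods. The probe set annotated to both copies of dpm1, the mannose donor synthase, stood at -1.55, -2.74 and -2.49 in −Salam and at 0.76 and 0.33 in Cont (difference -2.80, SE 0.58, adjusted p = 0.617). c19orf47.S stood at 2.23, 2.02 and 2.32 in −Salam and at 0.01 and 0.69 in Cont (difference 1.84, SE 0.55, adjusted p = 0.662). In these 3, as in mettl7a.L, the −Salam arrays lay beyond all others. Between −Salam and −Drago, where 836 of all probe sets (5.40%) had an unadjusted p under 0.05 and 0 an adjusted one, elavl1.S differed by -2.20 (SE 0.49) and c19orf47.S by 3.34 (SE 0.49). The other probe sets of dpm1 did not follow: dpm1.S differed by -0.56 (SE 1.04) and dpm1.L by 0.38 (SE 1.2), with overlapping arrays. grem1.L, bcorl1.L and rhno1.S differed by 0.23, 0.50 and -0.13 (SE 0.53, 0.50 and 0.54). The probe set that the study assigns to lamb1 stood at -1.95, -1.43 and -2.06 in −Salam and at -1.12 and -1.72 in Cont, overlapping (difference -0.39, SE 0.61).

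The other genes were read through 20 lists by role, 1243 probe sets in all. In none of them did a member reach an adjusted p under 0.05 by limma. The share of members at an unadjusted p under 0.05 ran from 0 to 10.3%, beside 5.69% of all probe sets, and list medians of the difference from -0.299 to 0.234, beside -0.0111 over all probe sets. With 1 array left out the list medians ran from -0.424 to 0.372, and 14 of the 20 changed sign under at least 1 alternative. In several list genes, bmpr1a.S, hspa8.L, ostc.L, mcm7.L, hnrnpa1.S, xiap.L and irf1.L among them, both Cont arrays lay beyond all other arrays of the study. Such a difference from Cont is not particular to −Salam.

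**Figure D4:**
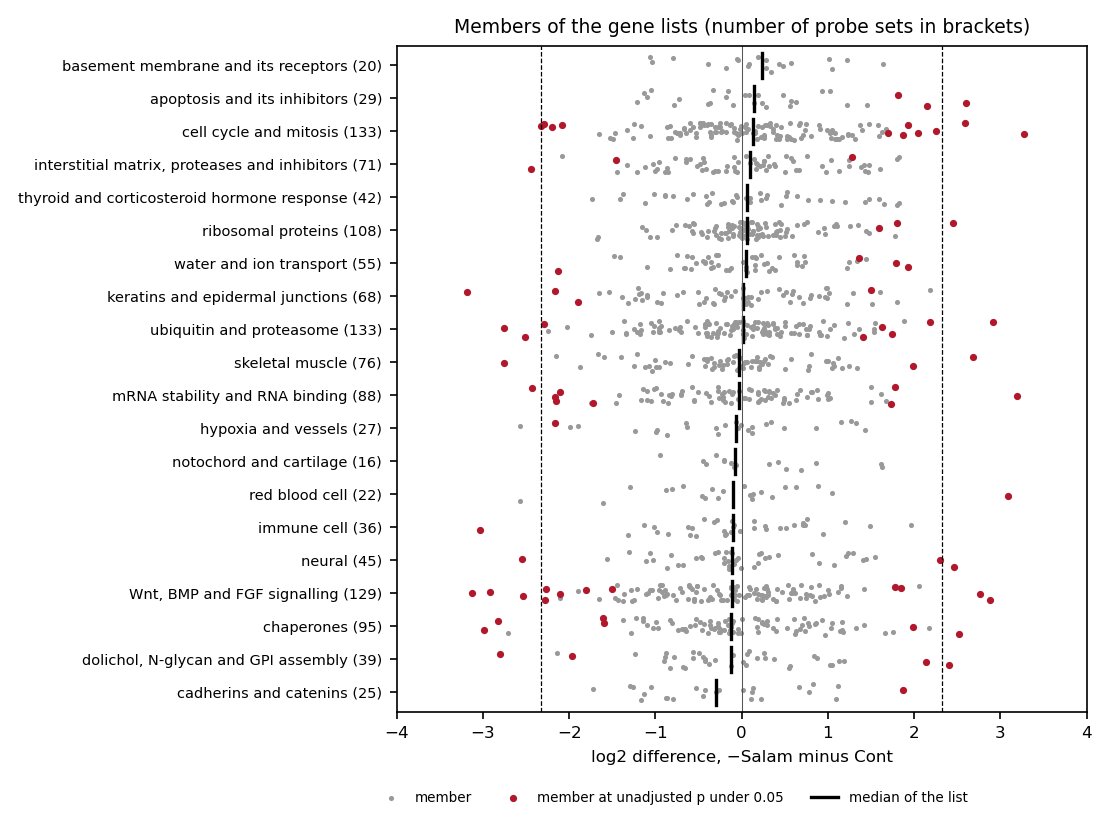
Each row is a gene list with its members' log2 differences, −Salam minus Cont, the members at an unadjusted p under 0.05 in red and the median as a black bar. Dashed lines mark 5 fold, and the medians of the 20 lists lie between -0.299 and 0.234.

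Wnt, BMP and FGF signals pattern the tail bud and the fin. Of 129 probe sets for them, 4 were higher and 8 lower at an unadjusted p under 0.05 (9.30%), and the median difference was -0.117. frzb.L, a secreted Wnt inhibitor, stood at 0.49, 0.08 and -0.97 in −Salam and at -4.07 and -1.73 in Cont (difference 2.77, SE 0.76). Cont was here below all other arrays, and its 2 values were far apart. bmpr1a.S, a BMP receptor, stood at 0.60, 2.24 and 0.50 in −Salam and at -1.22 and -2.29 in Cont (difference 2.88, SE 0.79). acvr1.S, a receptor of the same family, differed by 1.77 (SE 0.76). On the lower side lay fgf8.L, tcf7l2.L, a transcription factor of the Wnt pathway (-2.28, SE 0.80), and sfrp5.L, another secreted Wnt inhibitor (-1.50, SE 0.55). fzd7.L, a Wnt receptor, was on both sides: 1 probe set differed by 1.85 (SE 0.72) and another by -2.92 (SE 0.88).

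Genes of protein turnover and folding also lay on both sides. Of 133 probe sets for the proteasome, the COP9 signalosome and ubiquitin enzymes, 5 were higher and 3 lower (6.02%). Besides psma2.L and gps1.L, the proteasome genes psmd9.S (1.63, SE 0.61) and psma6.S (1.41, SE 0.55) lay above Cont. psma3.S, of the same proteasome ring as psma2.L, lay below it (-2.29, SE 0.92), as did the COP9 subunit cops2.L (-2.52, SE 1.03). Of 95 chaperone probe sets, 2 were higher and 4 lower (6.32%). hspa8.L, the constitutive cytosolic HSP70, stood at -0.03, 0.82 and 0.01 in −Salam and at -1.53 and -2.98 in Cont (difference 2.53, SE 0.70). Both Cont arrays were here below all others, and Salam, −Drago and Drago differed from Cont by 2.2, 2.5 and 2.1. hspa5.L, the HSP70 of the endoplasmic reticulum, stood at -2.17, -4.15 and -0.41 in −Salam and at 0.75 and 0.74 in Cont (difference -2.99, SE 0.99). dnajc3.L, a co-chaperone of the same compartment (-1.60, SE 0.69), and dnaja1.L, a cytosolic one (-2.82, SE 0.92), also lay below Cont.

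Of 39 probe sets for dolichol, N-glycan and GPI anchor assembly, the pathway of dpm1, 2 were higher and 2 lower (10.3%). ostc.L, of the oligosaccharyltransferase, stood at -0.54, 0.22 and 0.43 in −Salam and at -2.26 and -2.46 in Cont (difference 2.40, SE 0.80). dpm2.L, the partner of dpm1 in its enzyme, differed by 2.14 (SE 0.83), opposite to the dpm1 probe set above. tusc3.L, another subunit of the oligosaccharyltransferase, differed by -1.97 (SE 0.80).

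Among 88 probe sets for mRNA stability and RNA binding, 3 were higher and 5 lower (9.09%). For tial1, an RNA-binding protein of stress granules, a probe set of each Xenopus laevis copy lay below Cont. tial1.L stood at -2.16, -1.21 and -0.70 in −Salam and at 0.59 and 1.01 in Cont (difference -2.16, SE 0.80), and tial1.S differed by -2.15 (SE 0.83). Salam differed from Cont by -2.41 for tial1.L and -2.99 for tial1.S. hnrnpa1.S, a splicing regulator (1.78, SE 0.74), and cnot10.L, of the same deadenylase complex as cnot6l.S (1.74, SE 0.73), lay above Cont. Of 108 ribosomal protein probe sets, 3 were higher and 0 lower (2.78%), with rpl4.L at 1.80 (SE 0.66) and rpl5.S at 2.45 (SE 1.09), and a median of 0.06.

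Cell division genes spread over both sides. Of 133 probe sets, 7 were higher and 4 lower (8.27%), with a median of 0.132. mcm6.L, of the replicative helicase, stood at 2.48, 1.39 and 1.2 in −Salam and at -1.35 and -1.82 in Cont (difference 3.28, SE 1.16). dlgap5.S, a spindle protein, stood at 1.21, 0.61 and 0.32 in −Salam and at -0.89 and -1.53 in Cont (difference 1.93, SE 0.54), while its second probe set differed by -1.47 (SE 0.85). The first of its probe sets had been selected by the study on the same arrays. Probe sets for the helicase gene mcm7 disagreed, mcm7.L at 2.59 (SE 0.90) and mcm7.S at -2.29 (SE 0.91). orc1.L, of the origin recognition complex, lay below Cont (-2.20, SE 0.84), and kif4a.S, a mitotic kinesin, above it (2.25, SE 0.88). Of 29 probe sets for apoptosis, 3 were higher and 0 lower (10.3%): casp10.S, an initiator caspase (2.60, SE 1.0), tradd.L, a death receptor adaptor (2.15, SE 0.90), and xiap.L, an inhibitor of caspases (1.82, SE 0.79). For xiap.L both Cont arrays were below all others, and Salam, −Drago and Drago differed from Cont by 2.45, 2.09 and 2.71.

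The epidermis covers the tail and carries out its ion uptake. Of 68 probe sets for keratins and epidermal junctions, 1 was higher and 3 lower (5.88%). krt70.L stood at 1.24, 0.22 and 0.59 in −Salam and at -0.70 and -0.92 in Cont (difference 1.49, SE 0.61), opposite to the krt70.S probe set above. The other krt70.S probe sets lay on both sides, at -0.41 (SE 1.04), 0.43 (SE 0.92) and -1.66 (SE 0.82). cldn5.L, a tight junction protein, differed by -2.16 (SE 0.80). Of 55 probe sets for water and ion transport, 3 were higher and 1 lower (7.27%). aqp3.L, a water and glycerol channel, stood at 1.06, 0.95 and 1.76 in −Salam and at -0.63 and -0.44 in Cont (difference 1.78, SE 0.73). scnn1b.S, a subunit of the epithelial sodium channel, stood at 2.80, 0.51 and 0.17 in −Salam and at -0.78 and -0.74 in Cont (difference 1.92, SE 0.74). For both channels every −Salam array was above both Cont arrays, and the other aqp3 probe set, aqp3-a, differed by -0.53 (SE 0.75) with overlapping arrays.

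In the connective tissue lists few members stood out. Of 71 probe sets for interstitial matrix, its proteases and their inhibitors, 1 was higher and 2 lower (4.23%). col3a1.S, a fibrillar collagen, stood at 0.21, -0.02 and 0.26 in −Salam and at -1.14 and -1.12 in Cont (difference 1.28, SE 0.54), while its other probe sets differed by -0.05 (SE 0.94) and 0.05 (SE 0.63). thbs3.L, a thrombospondin, differed by -2.44 (SE 0.95), and sdc2.S, a heparan sulfate proteoglycan, by -1.46 (SE 0.65). For this sdc2.S probe set Drago differed from Cont by -2.44, Salam by 0.01 and −Drago by -0.23. The study had selected syndecan-2 on the same arrays and counts it among its dragonfly-specific genes. The other sdc2 probe sets differed by -0.33 (SE 0.59) and -0.17 (SE 1.05) for sdc2.L and by 0.29 (SE 1.08) for the one of both copies. Of 20 probe sets for the basement membrane and its receptors, 0 reached an unadjusted p under 0.05, and of 16 for notochord and cartilage also 0. Of 25 for cadherins and catenins, 1 was higher, cdh6.L (1.87, SE 0.87), with the lowest list median of all, -0.299. The list's medians per array were -0.229, -0.039 and -0.318 in −Salam and 0.192 and -0.025 in Cont, so that all −Salam arrays were below both Cont arrays. The medians per array did not overlap in 4 of the 20 lists (20.0%), the others being hypoxia and vessels, Wnt, BMP and FGF, and dolichol and N-glycans, beside 20.0% of all single probe sets.

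Of 76 muscle probe sets, 2 were higher and 1 lower (3.95%). ankrd2.L, a stretch-responsive protein of the sarcomere, stood at 0.12, 0.57 and 0.66 in −Salam and at -3.33 and -1.13 in Cont (difference 2.68, SE 0.89). myl1.S, a myosin light chain, differed by 1.99 (SE 0.90), and mybpc3.S, a myosin-binding protein known from the heart in mammals, by -2.75 (SE 1.02). The muscle list median was -0.034. Thyroid hormone drives metamorphosis and corticosteroids mediate stress, and of 42 probe sets for their responses 0 reached an unadjusted p under 0.05, with a median of 0.061. Among 27 for hypoxia and vessels, epas1.L, a hypoxia-inducible factor, was the 1 at an unadjusted p under 0.05 (-2.16, SE 0.82), while its second probe set differed by 0.86 (SE 0.98) and epas1.S by 1.15 (SE 0.91). The list's medians per array were -0.024, -0.103 and -0.205 in −Salam and 0.009 and 0.134 in Cont.

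Of 36 immune cell probe sets, irf1.L, an interferon-responsive transcription factor, was the 1 at an unadjusted p under 0.05 (2.78%). It stood at 0.25, -0.26 and -0.42 in −Salam and at 2.74 and 3.04 in Cont (difference -3.03, SE 0.83), and lyz.L, a lysozyme, differed by 1.96 (SE 0.93). For irf1.L both Cont arrays were above all others, and Salam, −Drago and Drago differed from Cont by -2.52, -2.86 and -2.91. Of 45 neural probe sets, 2 were higher and 1 lower (6.67%). Among the higher was ncam1.S, a neural adhesion molecule, whose −Salam arrays at 1.12, -1.11 and 0.72 overlapped Cont at -3.58 and -0.87. The lower one was snap25.S, at -1.16, -2.58 and -1.43 in −Salam and at 0.83 and 0.83 in Cont (difference -2.55, SE 1.01). A second snap25.S probe set differed by -1.56 (SE 0.98) with overlapping arrays.

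Probe sets of the same gene often disagreed. Over the 1293 gene symbols with at least 2, the differences of the first 2 probe sets had a Pearson r of 0.0305 and a Spearman rho of 0.0326 across genes, on the same 5 arrays. Of the 15 genes above Cont, 8 had other probe sets, 12 in all, of which 4 lay on the same side and 0 of these at an unadjusted p under 0.05. ranbp2.L had a second probe set at -1.31 (SE 1.10), and tmem30a.L stood at -0.17 (SE 0.90). Of the 15 below, 11 had 21 others, 15 on the same side. The 1 of these at an unadjusted p under 0.05 was a second probe set of fgf8.L, at -0.08, 0.05 and -1.24 in −Salam and at 1.91 and 1.78 in Cont (difference -2.27, SE 0.87), while the remaining fgf8.L probe set differed by 0.55 (SE 0.76). The second probe set of mettl7a.L differed by 0.29 (SE 0.95).

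**Figure D5:**
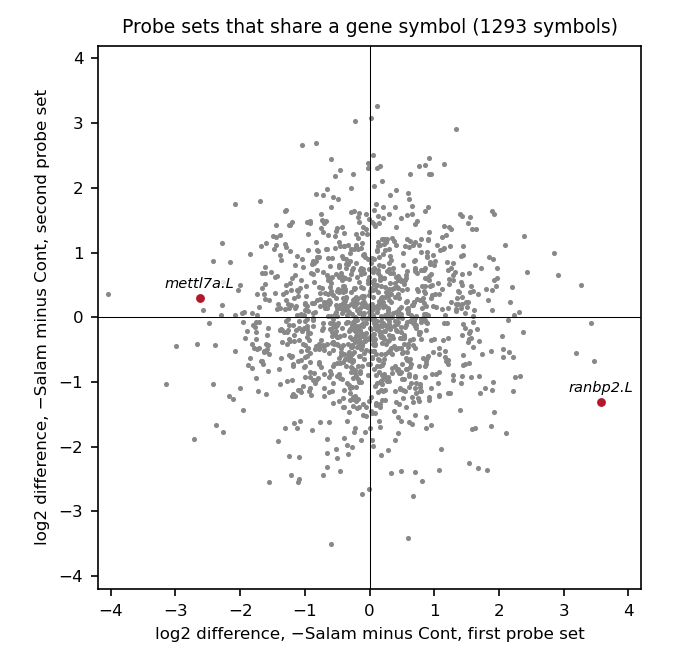
Each point is a gene symbol with 2 or more probe sets, with the log2 difference, −Salam minus Cont, of its first probe set on the x axis and of its second on the y axis. The points scatter round 0 with a Pearson r of 0.0305, and mettl7a.L and ranbp2.L (red) each have 2 probe sets of opposite sign.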

How the data were processed

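The authors scanned the arrays into GCOS and made MAS5 signals, which, per the methods, GeneSpring set to a baseline at the median of all samples. The values deposited by the authors are on the log2 scale, with a median of 0 for each of 15611 probe sets over the 14 arrays, so no filter on low signals, pseudocount or intensity trend could be used. A control array with failed hybridization was left out by the authors and is not used here.

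After 120 probe sets of added controls were left out, 15491 remained. The fit used limma 3.58.1 (R 4.3.3), took in every array of the study, gave each group its own mean and left 9 residual and 5.53 prior degrees of freedom. P-values were adjusted over all probe sets by Benjamini-Hochberg at 0.05. A fold is 2 to the power of the log2 difference. The script was tested on simulated data. Array medians ran from -0.00494 to 0.00677.

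Named are the 15 genes with 1 symbol, arrays that do not overlap and the smallest p on either side, 8 with the smallest larger p in −Salam and Salam on the same side, 8 over 5 fold in Salam and within a log2 difference of 0.32 in −Salam with the smallest p between both, genes the study names, and the members of each list with the smallest p. Those with several symbols were left unnamed except dpm1. Lists hold probe sets by symbol; symbols of other families that a name pattern caught were removed after values had been seen. Members and lists were chosen with earlier results of these data known. The 20 lists are muscle, keratins and epidermal junctions, basement membrane, interstitial matrix, cadherins and catenins, hypoxia and vessels, red blood cell, immune cell, neural, notochord and cartilage, hormone response, Wnt, BMP and FGF, water and ion transport, apoptosis, ubiquitin and proteasome, chaperones, ribosomal proteins, cell cycle, mRNA stability, and dolichol and N-glycans. Alternatives were quantile normalization, centring of arrays, only both groups, an ordinary test, robust moderation, the replicate number as a block, the Dap class as a covariate, linear means, other fold limits and leaving out each array. Only the arrays of low Dap were added after the data had been seen. A sign change of a single gene counted as reversed where it moved by more than 1 SE.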

Additional observations from a re-analysis of the deposited data

Results flagged for a closer look

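In 4 of the named probe sets, all −Salam arrays lay on one side of both Cont arrays and all −Drago arrays on the other. The −Salam side came largely from how the probe sets were chosen. −Drago minus Cont was -1.50 for c19orf47.S, but 0.47 for elavl1.S, 0.53 for sfrp5.L and -0.205 for the fzd7.L probe set. Apart from c19orf47.S, −Drago thus lay near Cont. The share of all probe sets that do so was not counted, so the 4 are a description. The study had selected c19orf47.S and elavl1.S on these same arrays. c19orf47.S stood at 2.23, 2.02 and 2.32 in −Salam, at -1.38, -1.42 and -0.65 in −Drago and at 0.01 and 0.69 in Cont, a difference of 3.34 between −Salam and −Drago (SE 0.49, adjusted p = 0.106 by limma). elavl1.S stood at -1.96, -2.10 and -1.63 in −Salam, at 0.14, 0.22 and 0.55 in −Drago and at -0.14 and -0.20 in Cont, a difference of -2.20 between −Salam and −Drago (SE 0.49, adjusted p = 0.605 by limma). sfrp5.L stood at -0.47, -0.30 and -0.50 in −Salam, at 1.42, 1.84 and 1.56 in −Drago and at 1.33 and 0.82 in Cont, a difference of -2.03 between −Salam and −Drago (SE 0.49, adjusted p = 0.605 by limma). The fzd7.L probe set above Cont stood at 2.19, 2.16 and -0.13 in −Salam, at -0.61, -0.64 and -0.68 in −Drago and at -0.29 and -0.58 in Cont, with −Salam minus −Drago at 2.05 (SE 0.65, adjusted p = 0.803 by limma). None of these differences passed the test over all probe sets, and over all of them 0 did and 836 (5.40%) had an unadjusted p under 0.05.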

How the results depend on the processing

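At an adjusted p under 0.05 the count between −Salam and Cont was 0 under each alternative run, with the lowest adjusted p at 0.18 without Cont replicate 2 and 0.334 in the ordinary test. The count at an unadjusted p under 0.05 was 777 to 898 with 1 array left out, and 786 in the ordinary test. The count over 5 fold (312) was 471 to 988 with 1 array left out, 1107 on the arrays of low Dap alone (2 −Salam against 1 Cont, chosen after seeing the data), 1552 at a limit of 3 fold and 16 at 10 fold. Fewer arrays widen the spread of a mean, and the lone array of a group was assumed to vary like the other groups. As ratios of linear means 375 were over 5 fold, 238 higher and 137 lower, against 159 and 153 on the log2 scale. With the replicate block the counts were 0, 872 and 382. Same-numbered deviations correlated at 0.011 and 0.01 over only 2 pairs. The deviations of the 2 Cont arrays mirror each other, so these correlations cannot tell whether the numbers pair the arrays. Between −Salam and Salam, 0 of the 30 named genes passed under any of these fits, the lowest adjusted p being 0.0769 in the ordinary test. The direction of the 30 genes was largely fixed by their choice for arrays that do not overlap and did not turn in any of 390 alternative values. The list medians moved by more than their spread over arrays in 59 of 220 alternative values, in 19 of the 20 lists at least once, and 16 of the 59 values came with no array left out. Of the other named genes, 10 values reversed, each with 1 array left out. Leaving out Cont replicate 1 gave the lowest value and Cont replicate 2 the highest for sytl1.S (-1.04 to 1.35), ropn1l.L (-0.70 to 0.95), dpm1.L (-1.09 to 1.84), a tpx2.L probe set (-0.31 to 2.14), an sdc2.L probe set (-1.41 to 1.06), a cirbp.S probe set (-2.42 to 0.75) and api5.L (-1.93 to 1.15), and the other way round for a ctnna1.S probe set (-0.34 to 2.58). Leaving out −Salam replicate 1 or 2 gave 0.73 and -1.02 for casp9.S, and 1.31 and -0.54 for the cetn3 probe set of both copies. The cause was not tested.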
